A study of Saccharomyces cerevisiae with 24 samples.

Results

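The alcohol dehydrogenase family of *S. cerevisiae* was taken by name as 8 genes, *ADH1* to *ADH7* and *SFA1*. Of these, 7 had values, out of 4073 genes with values in all, and *ADH7* (YCR105W) was not analysed here because no array feature in the probe annotation carries its symbol. The genes with values were *ADH1* (YOL086C), *ADH2* (YMR303C), *ADH3* (YMR083W), *ADH4* (YGL256W), *ADH5* (YBR145W), *ADH6* (YMR318C) and *SFA1* (YDL168W), each with 2 features and a value on all 24 arrays. The study asked how alleles of *FZF1*, a zinc finger transcription factor of sulfite resistance, change expression before and after sulfite. Microarrays with 2 colours were hybridised with 1 sample each against a pool of all RNA samples, and every value below is a log2 ratio of sample over pool unless a difference or fold is named.

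All strains were haploid *S. cerevisiae* of the S288c background with the native *FZF1* deleted and 1 *FZF1* allele integrated at the *ura3* locus. The full length *S. paradoxus* gene, both chimeras and the full length *S. cerevisiae* gene were compared. In the C.P. chimera the coding region came from *S. paradoxus* behind upstream sequence of *S. cerevisiae*, and in the P.C. chimera the coding region came from *S. cerevisiae* behind upstream sequence of *S. paradoxus*. Cultures, each sampled at both times, were grown for 3 h at 30 °C in rich glucose medium with 75 mM tartaric acid at pH 3.5. Each allele was sampled 15 min after sodium sulfite was added to 1 mM and just before the addition (0 min), with 3 arrays from independent replicates in each of the 8 groups. No culture without sulfite was sampled at 15 min on these arrays, so sulfite and the passing of 15 min cannot be told apart. Each value is an average over a whole culture, in which fewer cells that express a gene and less RNA in each cell cannot be told apart.

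Alcohol dehydrogenases interconvert alcohols and aldehydes with a nicotinamide cofactor. In yeast growing on glucose, pyruvate is decarboxylated to acetaldehyde, and reduction of acetaldehyde to ethanol restores the NAD+ that glycolysis uses. Sulfite binds acetaldehyde, which is why sulfite chemistry and this step of fermentation have long been studied together. The family holds fermentative, oxidative and mitochondrial isozymes of one zinc-dependent type, an unrelated iron-type enzyme (*ADH4*), NADPH-dependent enzymes with wide substrate ranges (*ADH6* and *ADH7*) and a glutathione-dependent formaldehyde dehydrogenase (*SFA1*).

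1 array went against its label. On arrays with the *S. cerevisiae* coding region, *FZF1* read between 0.74 and 2.21 at 15 min and between -0.11 and 0.37 at 0 min, except for replicate 2 of the group labelled *S. cerevisiae* at 0 min, where it read -3.63. That value lies in the range of alleles whose coding region is from *S. paradoxus*, -5.57 to -2.47, and on this ground the array is treated as doubtful. *URA3*, at the locus of integration, read 1.20 there against -1.97 and -1.89 on the other two of its group, but it also departed from its group elsewhere, with 1.34 against -1.62 and -0.66 for the C.P. chimera at 0 min, 2.30 on 1 array of that chimera at 15 min, and 1.17 and 0.01 on 1 array each of the P.C. chimera at 15 min and 0 min. The probes' match to *S. paradoxus* sequence was not tested. Results are given with this array, and also without it where stated. The median correlation between arrays of 1 group was 0.787 (24 pairs), and *SSU1*, the sulfite pump gene that *FZF1* activates, was higher on every array at 15 min (-0.13 to 1.46) than on every array at 0 min (-1.79 to -0.92).

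1 member of the family changed strongly after sulfite, and the others stayed close to the middle of all genes. Averaged over the 4 alleles, *ADH5* rose by 5.05 on the log2 scale, *ADH6* rose by 0.30 and *SFA1* fell by 0.19, while *ADH1*, *ADH2*, *ADH3* and *ADH4* lay between -0.04 and 0.09 and did not pass the test. At an adjusted p limit of 0.05 in limma, 2 of the 7 members rose and 1 fell, where 39.5% of all 4071 genes tested rose and 39.6% fell. The median response of the 7 members was 0.05, against 0.0075 over all genes, and the median size of a response over all genes was 0.466. *ADH5* had the highest mean response of all genes tested, ahead of the aldehyde dehydrogenase gene *ALD3* (4.97).

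**Figure D1:**
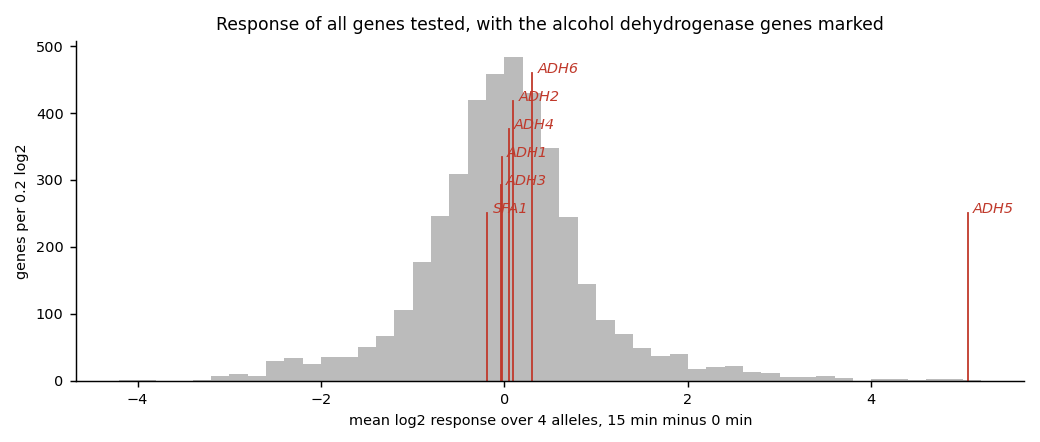
Histogram of the mean log2 response (15 min minus 0 min, averaged over 4 *FZF1* alleles) of all 4071 genes tested, with the number of genes per 0.2 log2 on the vertical axis and a red line for each of the 7 alcohol dehydrogenase genes. *ADH5* stands at 5.05, and the other 6 lie between -0.19 and 0.30, near the centre of the distribution. The heights of the red lines have no meaning.

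*ADH5* encodes a cytosolic isozyme of the zinc-dependent type. With the *S. paradoxus* allele it read -0.06, 0.45 and 0.73 at 15 min, against -4.43, -4.01 and -4.00 at 0 min. With the C.P. chimera it read 0.80, 0.99 and 0.80 at 15 min, against -3.79, -4.23 and -4.52 at 0 min. With the P.C. chimera it read 1.12, 1.23 and 0.60 at 15 min, against -4.43, -4.23 and -4.23 at 0 min. All arrays at 15 min thus lay far above all at 0 min for each of these alleles. With the *S. cerevisiae* allele it read 0.83, 0.77 and 1.26 at 15 min, against -4.54, -4.45 and -4.22 at 0 min, and the groups again did not overlap.

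The mean response of *ADH5* was a 33.1-fold rise (95% interval 28.5 to 38.6; limma adjusted p = 2.54e-19). The lowest of the 12 arrays at 15 min (-0.06) exceeded the highest of the 12 at 0 min (-3.79), a separation in this direction that 19.2% of genes with complete values showed, while 19.5% were separated in the opposite direction. *ADH5* was the only member with such a separation. By allele, the rise was 22.9-fold with *S. paradoxus* (interval 16.9 to 31.1), 33.0-fold with C.P. (24.4 to 44.6), 38.8-fold with P.C. (28.7 to 52.6) and 41.1-fold with *S. cerevisiae* (30.3 to 55.6). These responses ranked 4, 2, 1 and 1 among all genes in that order of alleles. The intervals of *S. paradoxus* and *S. cerevisiae* overlap only narrowly, and overlap is no test of a difference. The difference between alleles did not pass limma's test after adjustment, as given below. The 2 features of *ADH5* correlated at 0.997 across the 24 arrays.

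**Figure D2:**
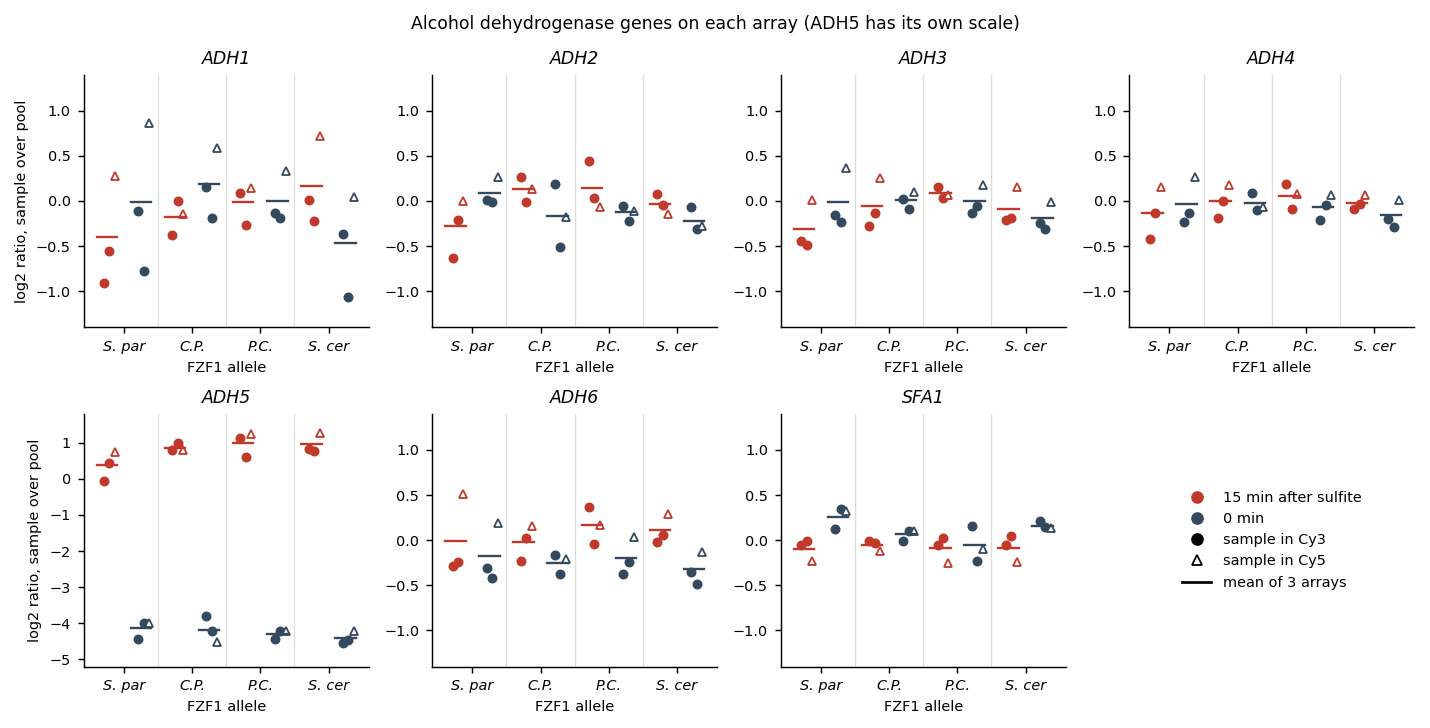
Log2 ratio of sample over pool on each array for the 7 alcohol dehydrogenase genes, by *FZF1* allele, with 15 min in red left of 0 min in blue, filled circles for samples in Cy3, open triangles for samples in Cy5 and a line at the mean of 3 arrays. *ADH5* has its own vertical scale and separates the times by more than 3 log2 units on all arrays, and among the other genes the times overlap in every allele except 1 for *ADH6* and 2 for *SFA1*. In *ADH1* the triangle of each group lies above the mean of its circles.

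*ADH1* encodes the main fermentative isozyme, which reduces acetaldehyde to ethanol on glucose. Over 12 arrays each, it ranged from -0.91 to 0.71 at 15 min with a median of -0.07, against a range from -1.07 to 0.87 at 0 min with a median of -0.12. The times overlapped almost fully. The mean response was -0.03 (interval -0.41 to 0.35; limma adjusted p = 0.877). Many feature values of *ADH1* equal a value shared by other features of their array, as described below, so the interval is no firm bound on its change. *ADH1* varied more between arrays of 1 group than nearly any other gene, with a within-group SD of 0.491 against a median of 0.193 over all genes, and 97.4% of genes varied less.

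The response of *ADH1* differed in sign between alleles without passing the test in any of them in the fit without pairing or a dye term. With the *S. cerevisiae* allele it read 0.01, -0.22 and 0.71 at 15 min, against -0.37, -1.07 and 0.05 at 0 min, a response of 0.63 (SE 0.37; limma adjusted p = 0.145). The value of -1.07 comes from the array that goes against its label, and without that array the response was 0.33 (adjusted p = 0.494). With the *S. paradoxus* allele *ADH1* read -0.91, -0.56 and 0.28 at 15 min, against -0.12, -0.77 and 0.87 at 0 min, a response of -0.39 (adjusted p = 0.371). The C.P. and P.C. chimeras gave -0.36 and -0.01, and the arrays of the times overlapped in all 4 alleles. With all arrays and a dye term in the fit, *ADH1* was called with *S. cerevisiae* (limma adjusted p = 0.0233).

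*ADH2* encodes the glucose-repressed isozyme that oxidises ethanol to acetaldehyde. It ranged from -0.64 to 0.44 at 15 min with a median of -0.01, against -0.51 to 0.27 at 0 min with a median of -0.09, and its mean response was 0.09 (interval -0.09 to 0.27; limma adjusted p = 0.326). With the *S. paradoxus* allele it read -0.64, -0.21 and 0.00 at 15 min, against 0.01, -0.01 and 0.27 at 0 min, a response of -0.37 (SE 0.17; adjusted p = 0.0685). That allele's highest array at 15 min lay only just above its lowest at 0 min. The responses with C.P., P.C. and *S. cerevisiae* were 0.29, 0.27 and 0.19, all of the opposite sign, and none of the 4 passed in the fit without pairing.

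*ADH3*, the mitochondrial isozyme of an ethanol and acetaldehyde shuttle, had a median of -0.06 at 15 min (range -0.49 to 0.25), against -0.08 at 0 min (range -0.31 to 0.36). Its mean response was -0.04 (interval -0.22 to 0.14; limma adjusted p = 0.658), and its responses by allele ran from -0.30 with *S. paradoxus* to 0.10 with *S. cerevisiae*. *ADH4*, the iron-type enzyme that is induced when zinc is scarce, had a median of -0.02 at 15 min (range -0.42 to 0.19), against -0.08 at 0 min (range -0.28 to 0.27). Its mean response was 0.05 (interval -0.11 to 0.20; adjusted p = 0.574), with responses by allele from -0.10 to 0.14. For neither gene did the arrays of the 2 times separate in any allele.

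*ADH6* encodes an NADPH-dependent alcohol dehydrogenase that reduces many aromatic and aliphatic aldehydes. It ranged from -0.28 to 0.52 at 15 min with a median of 0.04, against -0.48 to 0.19 at 0 min with a median of -0.27. The mean response was a 1.23-fold rise (interval 1.07 to 1.42; limma adjusted p = 0.00838), past the test but smaller in size than that of most genes: 33.9% of all genes had a smaller one. The responses were 0.17 with *S. paradoxus*, 0.23 with C.P., 0.36 with P.C. and 0.43 with *S. cerevisiae*. Each was above 0 and none passed the test alone in the fit without pairing or a dye term. The nearest was *S. cerevisiae* (limma adjusted p = 0.0624, and 0.183 without the array that goes against its label). With that allele *ADH6* read -0.02, 0.05 and 0.29 at 15 min, against -0.35, -0.48 and -0.13 at 0 min, without overlap. Leaving out all arrays of replicate number 2 gave a mean response of 0.26 with an adjusted p of 0.112, and *ADH6* was then no longer called. With all arrays and a dye term in the fit, *ADH6* was called with *S. cerevisiae* (limma adjusted p = 0.00888) and with P.C. (0.0272).

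*SFA1* encodes the enzyme that oxidises the adduct of formaldehyde and glutathione and also acts on longer alcohols. It ranged from -0.25 to 0.04 at 15 min with a median of -0.05, against -0.23 to 0.34 at 0 min with a median of 0.13. The mean response was a 1.14-fold fall (interval 1.05 to 1.24; limma adjusted p = 0.00361). *SFA1* was the least variable member, with a within-group SD of 0.121, and 12.2% of all genes varied less. On the Cy3 arrays alone the mean response was -0.12 (adjusted p = 0.0837), no longer called.

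In the fit without pairing or a dye term, the fall of *SFA1* passed the test with 1 allele alone, *S. paradoxus*. With that allele it read -0.06, 0.00 and -0.23 at 15 min, against 0.12, 0.34 and 0.32 at 0 min, a response of -0.36 (SE 0.11; limma adjusted p = 0.00781). With the *S. cerevisiae* allele it read -0.05, 0.04 and -0.24 at 15 min, against 0.21, 0.15 and 0.13 at 0 min, a response of -0.24 (adjusted p = 0.0618). Without the array that goes against its label that response was -0.25 (limma adjusted p = 0.0965). With all arrays, the response with *S. cerevisiae* was called with a dye term in the fit (limma adjusted p = 0.0338) and with values as deposited. The arrays of the 2 times did not overlap in either of these alleles. The responses with C.P. and P.C. were -0.12 and -0.03. The call with *S. paradoxus* was lost without replicate number 2 (adjusted p = 0.06), without replicate number 3 (0.0942) and on the Cy3 arrays alone (0.0781).

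Counted by allele, *ADH5* rose and *SFA1* fell with the *S. paradoxus* allele, where 30.3% of all genes rose and 29.7% fell. *ADH5* alone rose with the C.P. chimera (29.3% of genes up and 29.3% down), with the P.C. chimera (28.7% up and 28.6% down) and with the *S. cerevisiae* allele (29.0% up and 29.4% down). Arrays without overlap between the times were found for *ADH5* in all 4 alleles, for *ADH6* in 1 and for *SFA1* in 2. Over all genes with complete values, arrays at 15 min lay above those at 0 min in 29.4% of genes with *S. paradoxus*, 33.0% with C.P., 31.1% with P.C. and 32.3% with *S. cerevisiae*. They lay below in 29.7%, 32.8%, 30.5% and 32.7% of genes in the same order of alleles. In this fit, which treats the arrays of both times as unpaired and holds no dye term, *SFA1* with the *S. paradoxus* allele was the only call apart from *ADH5*.

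A fit with the culture as a block, which compares the times within equal replicate numbers, called further members in the full length alleles, where all 3 such pairs moved together. Equal numbers also shared a dye in these alleles, so culture and dye cannot be told apart in this block. With *S. paradoxus*, *ADH3* differed by -0.29, -0.25 and -0.35 within pairs and *ADH2* by -0.65, -0.20 and -0.27. In that fit both fell, *ADH2* by 0.37 (SE 0.11; limma adjusted p = 0.0122) and *ADH3* by 0.30 (SE 0.11; adjusted p = 0.0249), beside *ADH5* and *SFA1*. With *S. cerevisiae*, *ADH1* differed by 0.38, 0.85 and 0.67 within pairs and *ADH6* by 0.33, 0.54 and 0.43. There *ADH1* rose by 0.63 (adjusted p = 0.0257) and *ADH6* rose by 0.43 (adjusted p = 0.016), but without the array that goes against its label they were no longer called (0.52 with adjusted p = 0.135, and 0.38 with adjusted p = 0.0877). *SFA1* with *S. cerevisiae* had an adjusted p of 0.0504 in the block fit with that array and 0.0497 without it. In the block fit 33.1% of all genes rose and 33.2% fell with *S. paradoxus*, and 31.9% rose and 32.9% fell with *S. cerevisiae*. The difference between the responses of the full length alleles stayed without a call among the members, with -0.84 for *ADH5* (adjusted p = 0.14), -0.56 for *ADH2* (0.165) and -1.02 for *ADH1* (0.179).

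**Figure D3:**
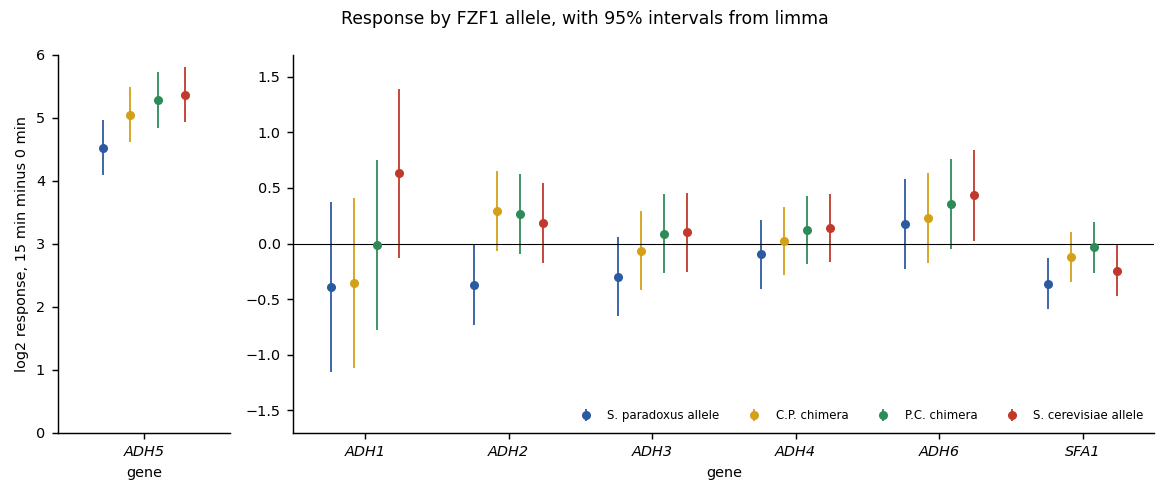
Log2 response (15 min minus 0 min) of each alcohol dehydrogenase gene with each *FZF1* allele, as a point with its 95% interval from limma without pairing, with *ADH5* on its own scale at left. *ADH5* lies between 4.52 and 5.36 in all 4 alleles, *SFA1* with the *S. paradoxus* allele has the one other interval called after adjustment (-0.36), and *ADH1* has the widest intervals.

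The design also asks whether the *FZF1* allele itself moved these genes. At 15 min, all 7 members were lower with the *S. paradoxus* than with the *S. cerevisiae* allele, and 45.2% of all genes were lower. At 0 min, all 7 were higher with the *S. paradoxus* allele, and 53.3% of all genes were higher. The differences were small against the spread: 0 of 7 members passed limma's test at 15 min, where 0.0491% of genes (2 genes) did, and 0 of 7 at 0 min, where 0.0% did. At an unadjusted p under 0.05 the counts over all genes were 349 and 116. The members share the same 6 arrays at each time, and several of them moved together across arrays of 1 group, as described below, so their signs are not separate observations.

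*ADH5* had the largest of these differences at 15 min. It averaged 0.37 ± 0.40 with the *S. paradoxus* allele and 0.96 ± 0.27 with the *S. cerevisiae* allele (SD, n = 3 each), a difference of -0.58 (interval -1.02 to -0.14; limma adjusted p = 0.457). The highest *S. paradoxus* array (0.73) lay just under the lowest *S. cerevisiae* array (0.77). The share of all genes with such a gap between these alleles was not counted, so the gap is a description only. *ADH1* differed by -0.57 (interval -1.33 to 0.19), *ADH2* by -0.25, *ADH3* by -0.22, *ADH4* and *ADH6* by -0.11 each and *SFA1* by -0.02 (interval -0.24 to 0.21). At 0 min *ADH1* differed by 0.45 and the others by 0.10 to 0.31. Without the array that goes against its label, the 0 min difference of *ADH1* was 0.15 and those of the others lay between 0.06 and 0.27, all still above 0.

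In the response itself, *S. paradoxus* minus *S. cerevisiae*, all 7 members were below 0, against 47.7% of all genes. The difference was -1.02 for *ADH1* (interval -2.10 to 0.06; limma adjusted p = 0.534), -0.84 for *ADH5* (-1.46 to -0.22; adjusted p = 0.451) and -0.56 for *ADH2* (-1.06 to -0.05; adjusted p = 0.503). It was -0.40 for *ADH3*, -0.26 for *ADH6*, -0.24 for *ADH4* and -0.12 for *SFA1*. None passed, as 0.0% of all genes did, with 391 genes at an unadjusted p under 0.05. Without the array that goes against its label the difference was -0.72 for *ADH1*, -0.82 for *ADH5* and -0.51 for *ADH2*. The intervals of *ADH1* and *ADH5* include differences of up to -2.10 and -1.46, so a missing call does not show that the alleles acted alike.

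No member was called in the tests over all 4 alleles. Neither the allele effect over both times (0.0737% of all genes called, 3 genes) nor the allele effect by time (0.0% called) held a member. The smallest unadjusted p of the second were those of *ADH2* (0.0404) and *ADH5* (0.0428), both with a limma adjusted p of 0.896. At an unadjusted p under 0.05 the 2 tests held 240 and 219 genes.

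The chimeras split the allele into its 5′ noncoding and coding regions, and no member was called for either. Over both times, 0.0% of all genes were called for the noncoding region, 0.0491% for the coding region and 0.0246% for their combination (full length alleles minus chimeras). By time, the shares were 0.0%, 0.0% and 0.0%. The response of *ADH5* with the *S. paradoxus* coding region was lower by a log2 difference of -0.54 (interval -0.98 to -0.10; limma adjusted p = 0.711), and that with the *S. paradoxus* noncoding region differed by -0.30 (-0.74 to 0.13). *ADH1* had the widest interval for the coding region, with a difference of -0.68 (-1.44 to 0.08). Without the array that goes against its label, the coding region difference was -0.53 for *ADH5* and -0.53 for *ADH1*. All 7 members were below 0 for both regions in response, where 46.9% of all genes were for the noncoding region and 51.4% for the coding region. The members share arrays, and the full length comparison uses some of the same arrays, so these signs are not separate observations. *ADH2* and *SFA1* had the lowest values for the combination by time, -0.37 (-0.73 to -0.01; adjusted p = 0.972) and -0.22 (-0.45 to 0.00; adjusted p = 0.972).

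The dye of the sample moved with several members. In each group the sample was in Cy5 on 1 array and in Cy3 on 2, and the Cy5 array was compared with the mean of the 2 Cy3 arrays. *ADH1* was higher on the Cy5 array in 8 of 8 groups, by 0.66 on average (SD 0.41 over groups), and 2.7% of all genes had a larger dye difference in size. *ADH6* was higher in 8 of 8 groups by 0.32, *ADH3* in 7 of 8 by 0.31 and *ADH4* in 7 of 8 by 0.21. *ADH5* (0.17), *SFA1* (-0.09) and *ADH2* (0.02) were below or at the median size over all genes, 0.172. The dyes are balanced over the groups. Within the Cy3 arrays and within the Cy5 arrays, *ADH5* had mean responses of 4.95 and 5.25 and the order *S. paradoxus*, C.P., P.C., *S. cerevisiae* from low to high. *ADH6* had 0.29 and 0.31, *SFA1* -0.12 and -0.33, and *ADH1* 0.06 and -0.21, with a different sign in each dye.

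**Figure D4:**
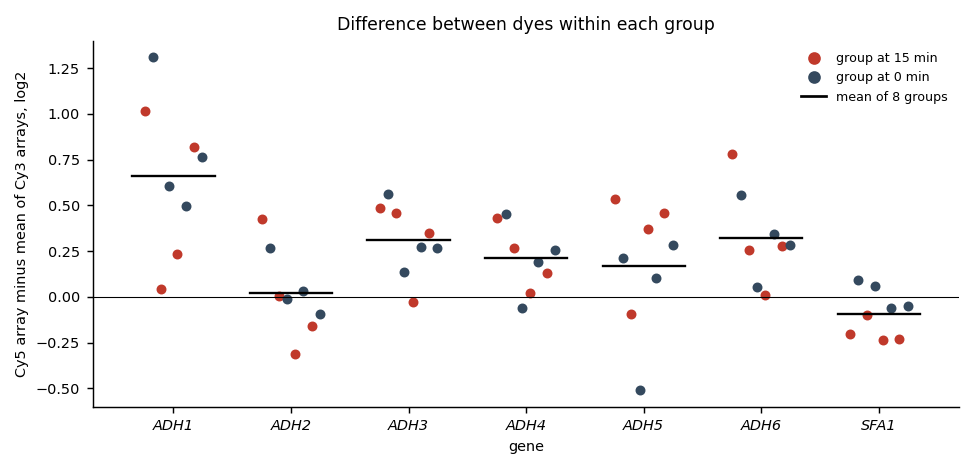
Log2 value on the Cy5 array minus the mean of the 2 Cy3 arrays within each of the 8 groups, for each alcohol dehydrogenase gene, with groups at 15 min in red, groups at 0 min in blue and a line at the mean of 8 groups. *ADH1* and *ADH6* lie above 0 in all 8 groups, with means of 0.66 and 0.32, and *ADH2* scatters around 0.02.

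*ADH1* stood apart in another way. On each array, between 55 and 130 features carried exactly the same value, the most frequent one of that array. Of the 48 feature values of *ADH1*, 21 lay within 0.02 of it, on 15 of the 24 arrays (9 at 15 min and 6 at 0 min), while 3.08% of all feature values of genes did. The other members had 0 to 5 such values of 48. The genes with most of them include *TEF1* (30 of 48), the ribosomal protein gene *RPL4A* (29) and the pyruvate decarboxylase gene *PDC1* (27). Without such values, an alternative added after seeing the data, the mean response of *ADH1* was 0.12 (SE 0.23; limma adjusted p = 0.638) and the difference between the responses of the full length alleles was -0.46, against -1.02 with all values. Signal intensities were not analysed here, and the part of this shared value in the results for *ADH1* was not tested.

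**Figure D5:**
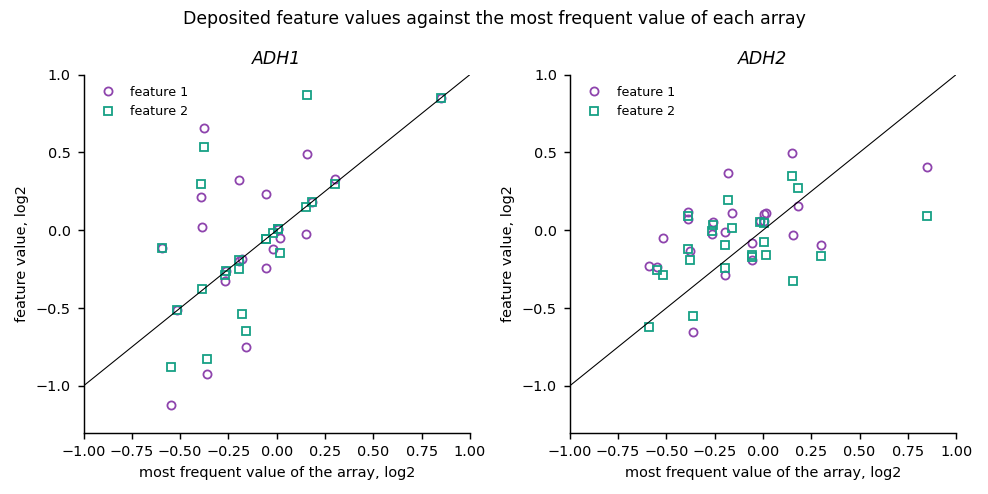
Value of each of the 2 features of *ADH1* (left) and *ADH2* (right) on each of the 24 arrays against the most frequent value of that array, both in log2, with a line where they are equal. 21 of the 48 points of *ADH1* and 0 of the 48 of *ADH2* lie within 0.02 of the line.

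Across the 24 arrays, *ADH1*, *ADH3*, *ADH4* and *ADH6* varied together after group means were removed. The correlation within groups was 0.92 for *ADH3* with *ADH6* and for *ADH4* with *ADH6*, and between 0.76 and 0.86 for the other pairs of these 4 genes. *ADH2* had lower values with all other members (0.05 to 0.51). *SFA1* was below 0 with *ADH5* (-0.48), *ADH6* (-0.44), *ADH3* (-0.39), *ADH4* (-0.34) and *ADH1* (-0.34). The points share arrays, dyes and scaling, and these 4 genes are those with the 4 highest dye differences, so the values are descriptions of these arrays. The coding sequences of *ADH1*, *ADH2* and *ADH5* are close relatives, and whether a probe for one also bound RNA of another was not tested.

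The genes most like each member over the 24 arrays differed between members. For *ADH5* they were *ATG41* (r = 0.996), *HOM3*, the aspartate kinase gene (0.996), and *SOL1* (0.995), which rose by 4.24, 2.15 and 1.88. For *ADH1* they were the glycolytic genes *TDH3* (0.94) and *ENO2* (0.94) and the unfolded protein response factor gene *HAC1* (0.92), and none of the 3 passed the test for a mean response. For *ADH6* they were *SNZ1* (0.94), *ARO8* (0.93) and *TRP5* (0.92), genes of vitamin and amino acid synthesis with responses of 0.42, 0.21 (not called) and 0.37. For *SFA1* they were *CAF40* (0.87), *ERG13* of sterol synthesis (0.86) and *MEX67* of mRNA export (0.82), all of which fell. For *ADH2* they were *PHO91* (0.85), *AAD6* (0.84) and *YTA12* (0.83), for *ADH3* *PMP1* (0.95), *MTR10* (0.93) and *CWC25* (0.93), and for *ADH4* *PAU24* (0.92), *CAN1* (0.90) and *PMP2* (0.88). Each r was picked as the highest over all genes with complete values and rests on the same arrays, and in *ADH5* the contrast of the 2 times makes up nearly all of it.

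The gene lists here and below were chosen with earlier results of these data known, so their counts are descriptions only. Over all genes tested, 39.5% rose and 39.6% fell. All 13 genes on the list of acetaldehyde and acetate metabolism were measured, and 9 rose and 3 fell (median response 1.10). Among them *ALD3* rose by 4.97 and *PDC6*, a minor pyruvate decarboxylase gene, rose by 1.82. The other pyruvate decarboxylase genes fell, *PDC5* by 0.57 and *PDC1* by 0.30, and *ATF2*, of acetate ester synthesis, fell by 2.24. *ADH5* and *ALD3* had the 2 highest mean responses of all genes tested.

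The next lists hold other enzymes that act on carbonyl groups, and 39.5% of all genes rose and 39.6% fell. Of 7 measured genes of 10 that encode other medium-chain dehydrogenases and reductases, 5 rose and 0 fell (median 1.12), with *XYL2* at 2.07 and *BDH1*, the butanediol dehydrogenase gene, at 1.98, while *AST1* (0.09) and *SOR1* (-0.18) were not called. Of 10 measured of 12 aldehyde and keto reductases, 9 rose and 0 fell (median 1.29), with *GCY1* at 4.30, *AAD10* at 2.34 and *AAD6* at 0.23, and *AAD3* (0.04) was not called. The Ehrlich pathway, which turns amino acids into fusel alcohols through a last step that alcohol dehydrogenases carry out, had 3 of 7 genes up and 1 down (median 0.21). *ARO80* rose by 0.99, *BAT2* rose by 0.68, *ARO9* fell by 0.33 and *ARO10* (0.04) was not called.

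Further lists, chosen in the same way, were tied to single members. Their counts stand beside the same shares of all genes, 39.5% up and 39.6% down, as descriptions only. Of 14 genes that, like *ADH2*, are repressed by glucose, 10 rose and 1 fell (median 0.49), with *SIP4* at 2.22, *MDH2* at 1.84, *FBP1* at 0.05 (not called) and *CTA1* at -0.25. The list of zinc homeostasis held *ZAP1*, the gene of a factor that also acts on *ADH4*. Of 8 measured of its 11 genes, 3 rose and 4 fell (median -0.12). *COT1* was at 1.38, *ZAP1* at 0.62, *ZRC1* at -0.70 and the zinc transporter gene *ZRT1* at -0.86. Of 8 measured of 9 genes of formaldehyde and glutathione chemistry, the setting of *SFA1*, 6 rose and 0 fell (median 0.69), with *GLO1* at 1.74 and *GTT1* at 1.01, while *GSH1* (0.10) and *GSH2* (0.04) were not called. Without the array that goes against its label, the counts up were 9 for the list of genes repressed by glucose and 5 for the formaldehyde list, and no other count of these 7 lists changed.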

How the data were processed

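The deposited values are log2 ratios of sample over a pool of all RNA samples from Agilent yeast V2 arrays, median normalized for each array by the authors, with dye-swapped arrays already turned one way. The background correction is not given in the sources used here. Of 15744 features, 8152 carry 1 gene symbol and 7592 were not used. Features were matched to genes by grid position, since both features of 1 gene then correlated at a median of 0.928 (4068 genes), against -0.0064 (2799 genes) where equal numbers were joined. The match rests on the data, not on a layout file. A table of RefSeq names updated 125 symbols.

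Gene values are the mean of their features minus the array's median over genes. Group means were fitted with limma 3.58.1 (R 4.3.3) for the 4071 genes measured on at least 2 arrays of every group, with contrasts for responses, alleles and regions, F-tests over 4 alleles, and Benjamini-Hochberg adjustment over all genes with a limit of 0.05. Tables and plots used Python 3.11.15, pandas 2.3.3, NumPy 2.4.6, SciPy 1.17.1 and matplotlib 3.10.9. The fit was also tested on simulated data with independent noise on each array and changes in 200 of 4071 genes. In the data arrays share dyes, and 3220 genes were called in the mean response. The recovered shares therefore need not hold for the data. Of changes of 0.5 log2 it recovered 86% in the mean response, 34% between full length alleles at 15 min and 7.5% in their response. For changes of 1 log2 the shares were 99%, 90.5% and 73.5%. False calls made up 0% to 6.2% of the calls across both sizes of change. Cultures were sampled at both times, but the labels do not say that equal replicate numbers mark 1 culture. Deviations from group means of equal numbers correlated between 0.468 and 0.763 with *S. paradoxus* and between 0.413 and 0.716 with *S. cerevisiae*, but below 0 in 1 of 3 pairs with C.P. and 3 of 3 with P.C., so the block by culture is given beside results of the full length alleles only. In both full length alleles equal numbers also shared a dye, while numbers 2 and 3 of P.C. had opposite dyes at the 2 times. These correlations therefore cannot tell a shared culture from a shared dye. Of 12 pairs, 7 correlated best with their own number. The number of arrays, 3 a group, limits the precision.

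The members and gene lists were chosen with earlier results of these data known. Named are all members, the 3 genes most correlated with each over the 24 arrays, *FZF1*, *SSU1* and *URA3* as checks of labels, the 2 highest and 2 lowest responses in each list, and, chosen after their values were seen, *TEF1*, *RPL4A* and *PDC1*. Alternatives were blocks by replicate number and by culture, 1 value per culture, a dye term, Cy3 arrays alone, other scalings, single features, missing value filters, array weights, other fits, the methods' analysis of variance at P under 0.01 without adjustment, other thresholds, and leaving out each array and replicate number.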

Additional observations from a re-analysis of the deposited data

How the results depend on the processing

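*ADH5* was called in the mean response and in each allele under all 20 alternatives and all 28 fits that left out arrays, with a mean response of 4.55 to 5.25 under the alternatives. The numbers of members called moved as follows, with smaller changes in a count not all listed. In the mean response (3), 1 was left at 2-fold or more and 2 to 3 without single arrays or replicate numbers. With *S. paradoxus* (2), it was 4 (*ADH2*, *ADH3*, *ADH5*, *SFA1*) under the replicate block, the block by culture and the methods' model, 1 at 2-fold, and 1 to 4 with arrays left out. The dye term also added *ADH3* with that allele (limma adjusted p = 0.0147). With C.P. (1) it was 2 (*ADH2* added) under the block by culture, and 1 to 2 with arrays left out. With P.C. (1) it was 2 (*ADH6* added) under the block by culture, the dye term, Cy3 arrays alone and array weights, and 1 to 2 with arrays left out. With *S. cerevisiae* (1) it was 2 (*ADH6* added) under the replicate block, Cy3 arrays alone, the first feature and array weights. It was 2 (*SFA1* added) under values as deposited and the plain model. The count was 3 under the block by culture (*ADH1*, *ADH5*, *ADH6*) and the methods' model (*ADH5*, *ADH6*, *SFA1*). It was 4 with the dye term (*ADH1*, *ADH5*, *ADH6*, *SFA1*), and 1 to 3 with arrays left out. Between full length alleles, 0 became 2 (*ADH3*, *ADH5*) with array weights and 1 (*ADH5*) under the methods' model at 15 min, and 3 (*ADH1*, *ADH2*, *ADH5*) under the methods' model in response. The allele effect (0) held 1, *ADH3*, on Cy3 arrays alone and with array weights, and 0 to 1 with arrays left out, and 2 by time under the methods' model. For the regions combined, 0 became 1 on Cy3 arrays alone and with array weights, 2 under the methods' model and 0 to 3 with arrays left out over both times, and 2 by time under the methods' model. For the coding region by time, 0 became 1 under the methods' model and 0 to 2 with arrays left out. The cause was not tested. Over all genes the mean response gave 3220 calls (810 to 3421), full length alleles at 15 min 2 (0 to 1085), their response 0 (0 to 522), the allele effect 3 (1 to 491) and by time 0 (0 to 490).

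With P.C. and C.P., deviations of equal numbers were not all correlated above 0, so the block is not given beside those alleles' values. The replicate block gave 4 calls with *S. paradoxus* and 2 with *S. cerevisiae*. The block by culture without the array that goes against its label was added after seeing the data. Fits that treat both features as observations give more calls by construction. No intensities were used, so dim or saturated spots were not told apart.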
